A study of Mus musculus with 24 samples.

Results

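The 6 genes described here, Grm2, Grm3, Grm4, Grm5, Grm7 and Grm8, encode metabotropic glutamate receptors and were chosen by name and not by a threshold on their values. Earlier results of these data were known when they were chosen. All 6 were present among the 52636 gene identifiers of the count files, and all 6 were among the 19726 genes abundant enough to be tested. Brain RNA of mice was read out in 24 sequencing libraries, 6 in each of 4 groups. In the syn-Cre line the Cre-positive group is labelled EAAT2 -/- and the Cre-negative group EAAT2 +/+. In the gfap-Cre line the Cre-positive group is labelled EAAT2 Δ/+ and the Cre-negative group EAAT2 +/+. The study's title sets astrocytic against neuronal deficiency of EAAT2, the main glutamate transporter of the brain, encoded by Slc1a2. The Cre-positive genotypes are thus labelled differently in the lines, and the labels do not say how many alleles are altered in the targeted cells. Cre driver and genotype cannot be told apart between the lines. The sources used here give no age, sex, brain region or time at which Cre acts. The design text speaks of 6 mice and 4 groups and no label ties a library to an animal, so p-values measure the spread between these libraries.

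Metabotropic glutamate receptors are G-protein-coupled receptors that work as dimers and bind glutamate through a large extracellular domain. Group I receptors, represented here by Grm5, couple to Gq, activate phospholipase C and release calcium from internal stores, and they sit mostly around the postsynaptic density. Group II receptors (Grm2 and Grm3) and group III receptors (Grm4, Grm7 and Grm8) couple to Gi/o, lower cyclic AMP and mostly restrain transmitter release. Grm3 is also made by astrocytes, and glutamate that escapes uptake by EAAT2 is a natural activator of receptors outside the synaptic cleft.

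Each library held 41596313 to 69652824 counts in genes. Slc1a2 itself did not differ by the test between Cre-positive and Cre-negative libraries. Its level was 3012 ± 213 against 3322 ± 98.7 CPM in the syn line and 3480.3 ± 290 against 3518 ± 542 CPM in the gfap line (Cre-positive mean before Cre-negative, ± SD, n = 6). CPM here is the count relative to the scaled library total, and a count over the whole gene need not fall when an exon is removed. Markers of dentate gyrus were present in every library (Prox1 72.1 to 133.5 CPM, C1ql2 57.6 to 110 CPM), as was the forebrain neuron gene Neurod6 (154 to 253 CPM). Gabra6, a marker of cerebellar granule cells, was at most 0.13 CPM. It was 1 of 2 genes, with Barhl1, under 0.5 CPM in every library among 12 genes listed for cerebellum. Cbln3 of that list reached 1.19 CPM in syn Cre-positive 3 (median 0.43 CPM). The whole list summed to 188 to 305 CPM. The summed level of 10 neuronal markers was 7614 to 8499 CPM in the syn libraries and 8877 to 9912 CPM in the gfap libraries, with no overlap. Reads that fell in no gene made up 7.52 to 11.1% of all reads listed in the syn line and 4.47 to 6.37% in the gfap line. The value of 11.1% was that of syn Cre-negative 5 alone, and the next highest was 8.63% in syn Cre-positive 4. Syn Cre-negative 5 also had the largest shares of reads matching more than 1 gene (7.46%) and of unaligned reads (4.71%). In 3 syn Cre-positive and 3 syn Cre-negative libraries Ttr, the leading transcript of choroid plexus, was above 1000 CPM, which no gfap library reached. Library syn Cre-positive 5 held the highest level of the thalamic markers Tcf7l2 (15.5 CPM, against a median of 4.26 CPM over 24 libraries) and Prkcd (84.9 CPM, median 23.4 CPM). The same library also led for the striatal marker Drd2 (7.92 CPM, median 2.72 CPM). It led as well for Eomes, listed for olfactory bulb and cerebellum (3.27 CPM, median 0.055 CPM). In bulk RNA, fewer cells of a type and less RNA per cell cannot be told apart.

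Per unit of gene length, Grm5 was the most abundant of the 6 receptor genes and Grm8 the least. Grm5 stood at 31.1 CPM per kilobase of merged exons (25.6 to 37.3 over 24 libraries), which was 44.9% of the summed level of the 6 genes. Grm3 followed at 15.0 (12.5 to 16.5), Grm2 at 10.5 (8.10 to 13.2) and Grm7 at 9.39 CPM per kilobase (7.83 to 10.5). Grm4 was at 2.27 (1.30 to 4.13) and Grm8 at 0.785 CPM per kilobase (0.530 to 1.19). This order held within libraries for most neighbours. Grm5 was above Grm3 in 24 of 24 libraries, by 1.67 to 2.53-fold, and Grm3 was above Grm2 in 23 of 24. Grm2 and Grm7 were not separated, since Grm2 was the higher in 16 of 24 libraries and the ratio ran from 0.826 to 1.69. Grm7 was above Grm4 in 24 of 24 libraries (2.23 to 7.12-fold) and above Grm8 by 6.59 to 17.8-fold. With the length of the longest transcript in place of merged exons, Grm7 (13.1 CPM per kilobase) stood above Grm2 (10.9) and the other places in the order were as before. Ranked by level per kilobase among all tested genes, Grm5 was at percentile 92.4, Grm3 at 83.5, Grm2 at 77.2, Grm7 at 75.2, Grm4 at 46.5 and Grm8 at 30.7.

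**Figure D1:**
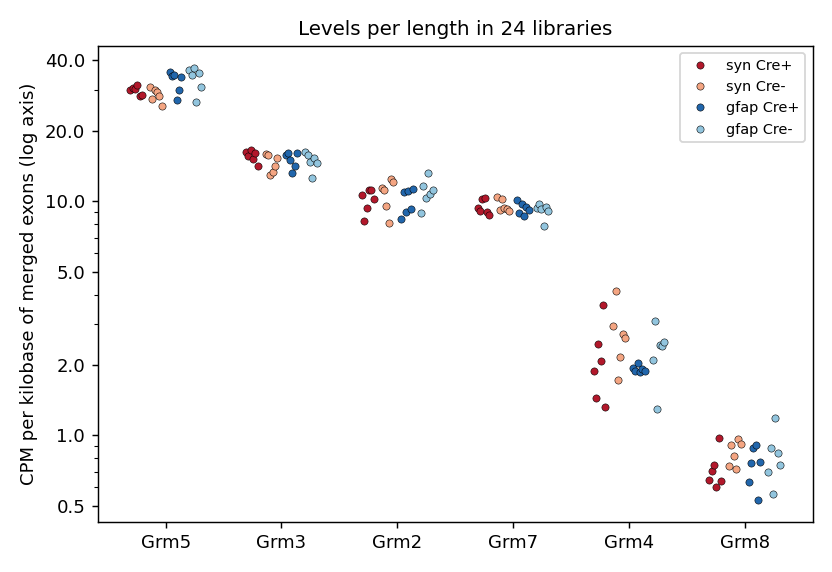
Level of each receptor gene in CPM per kilobase of merged exons (vertical log axis) in every library, coloured by group, with 6 libraries a group. Grm5 lies at 25.6 to 37.3 and Grm8 at 0.530 to 1.19, and the ranges of Grm2 and Grm7 overlap.

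Grm5 encodes mGlu5, the group I receptor tied to the Homer and Shank scaffold of the postsynaptic density. The gene (ENSMUSG00000049583) spans chromosome 7, 87584168 to 88134907 on the plus strand of GRCm38/mm10, and drew 11665 to 24976 counts per library. In syn Cre-positive libraries Grm5 was between 289 and 321 CPM with a median of 308 CPM (mean 305 ± 11.9 CPM, SD, n = 6). Syn Cre-negative libraries held 262 to 315 CPM, median 295 (292 ± 19.5 CPM). The syn groups overlapped, with 3 of 6 Cre-negative libraries below every Cre-positive one and 1 Cre-positive library above every Cre-negative one. Gfap Cre-positive libraries held 276 to 365 CPM, median 351 (334 ± 34.9 CPM), and gfap Cre-negative libraries 273 to 382 CPM, median 358 (343 ± 41.3 CPM). Within the gfap line, replicate 4 was the lowest library of each group, and the remaining libraries reached higher than any syn library in 4 of 6 Cre-positive and 4 of 6 Cre-negative cases.

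Grm2 and Grm3 encode the group II receptors, which sit largely outside the synapse. Grm3 also responds to N-acetylaspartylglutamate (NAAG), a peptide transmitter. Grm2 (ENSMUSG00000023192) lies on chromosome 9, 106643095 to 106656082, minus strand, and drew 1931 to 3312 counts per library. Its levels were 40.5 to 54.9 CPM, median 51.0, in syn Cre-positive libraries (49.7 ± 5.55 CPM, SD, n = 6) and 39.6 to 60.9 CPM, median 55.4, in syn Cre-negative libraries (52.9 ± 8.16 CPM). In the gfap line Grm2 stood at 41.0 to 55.2 CPM, median 49.4, in Cre-positive libraries (48.9 ± 6.15 CPM) and at 43.6 to 64.8 CPM, median 53.6, in Cre-negative libraries (53.8 ± 7.05 CPM). The 4 ranges of Grm2 shared most of their span, and the highest library was gfap Cre-negative 4. Grm3 (ENSMUSG00000003974) lies on chromosome 5, 9485541 to 9725170, minus strand, with 1738 to 2941 counts per library. It stood at 43.2 to 50.4 CPM, median 48.2, in syn Cre-positive libraries (47.7 ± 2.65 CPM) and at 39.6 to 48.4 CPM, median 44.9, in syn Cre-negative libraries (44.4 ± 3.86 CPM). In the gfap line it was 40.1 to 49.2 CPM, median 47.0, in Cre-positive (45.9 ± 3.65 CPM) and 38.2 to 49.6 CPM, median 45.9, in Cre-negative libraries (45.4 ± 4.00 CPM). Grm3 lay in a narrower band than Grm2 in every group, and 3 of 6 syn Cre-positive libraries were above all syn Cre-negative ones.

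The group III receptors include autoreceptors of glutamate terminals. Grm7 encodes mGlu7, a receptor of low glutamate affinity placed in the presynaptic active zone. Grm7 (ENSMUSG00000056755) spans chromosome 6, 110645581 to 111567230, plus strand, with 2212 to 3643 counts per library. Syn Cre-positive libraries held 51.3 to 60.9 CPM of Grm7, median 54.4 (55.7 ± 3.94 CPM, SD, n = 6), and syn Cre-negative libraries 53.8 to 61.7 CPM, median 55.0 (56.6 ± 3.35 CPM). Gfap Cre-positive libraries held 51.1 to 59.8 CPM, median 54.8 (55.1 ± 3.18 CPM), and gfap Cre-negative libraries 46.1 to 57.4 CPM, median 54.8 (53.7 ± 3.98 CPM). The 4 medians of Grm7 lay within less than 1 CPM of each other, and the lowest library was gfap Cre-negative 4.

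Grm8 encodes mGlu8, a receptor of high glutamate affinity. Grm8 (ENSMUSG00000024211) spans chromosome 6, 27275119 to 28135178, minus strand, and was the scarcest of the 6 genes with 248 to 596 counts per library. It stood at 5.95 to 9.65 CPM, median 6.70, in syn Cre-positive libraries (7.12 ± 1.35 CPM, SD, n = 6) and at 7.14 to 9.60 CPM, median 8.58, in syn Cre-negative libraries (8.39 ± 1.00 CPM). In the gfap line it was 5.25 to 8.98 CPM, median 7.60, in Cre-positive (7.42 ± 1.44 CPM) and 5.58 to 11.7 CPM, median 7.90, in Cre-negative libraries (8.14 ± 2.10 CPM). Among syn libraries 4 of 6 Cre-positive ones lay below every Cre-negative one, while syn Cre-positive 5 lay above all of them.

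Grm4 encodes mGlu4, a presynaptic receptor best known from cerebellar granule cells and thalamic and basal ganglia terminals. Grm4 (ENSMUSG00000063239) lies on chromosome 17, 27422387 to 27521403, minus strand, with 382 to 1280 counts per library. Syn Cre-positive libraries ran from 7.94 to 21.5 CPM, median 11.8 (12.7 ± 4.96 CPM, SD, n = 6), and syn Cre-negative libraries from 10.3 to 24.7 CPM, median 15.9 (16.2 ± 4.90 CPM). Gfap Cre-positive libraries ran from 11.2 to 12.2 CPM, median 11.4 (11.5 ± 0.380 CPM), and gfap Cre-negative libraries from 7.78 to 18.4 CPM, median 14.5 (13.8 ± 3.52 CPM). The gfap Cre-positive libraries were nearly level, and in the gfap line 5 of 6 Cre-negative libraries were above and 1 below all of them. The remaining groups each spanned more than 10 CPM, and their extremes were syn Cre-negative 2, syn Cre-positive 5 and gfap Cre-negative 3.

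**Figure D2:**
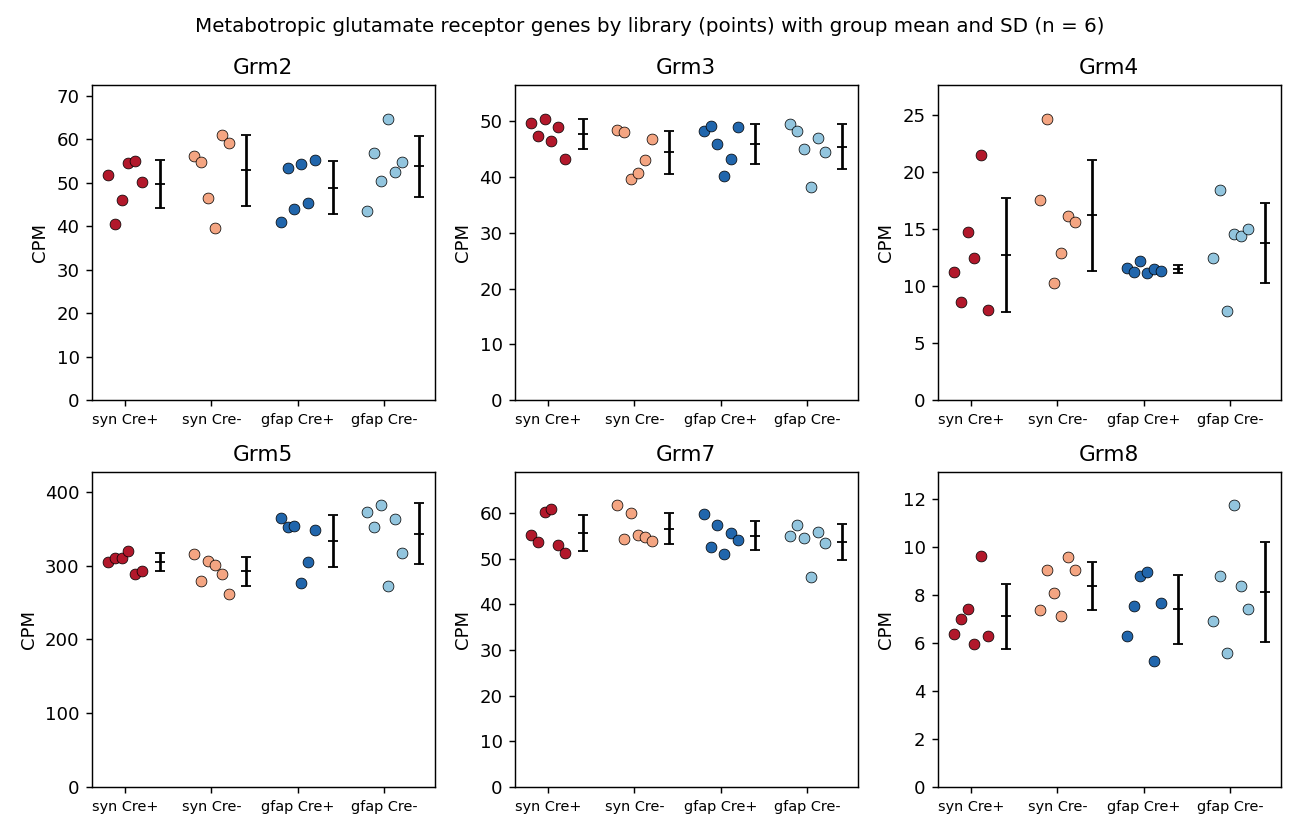
Level of each receptor gene in CPM (vertical axes start at 0), 1 point per library, with the group mean and SD (n = 6) beside the points. Grm7 lies at 46.1 to 61.7 CPM in all 4 groups, the gfap groups of Grm5 reach 382 CPM, and Grm4 is nearly level in the gfap Cre-positive group at 11.2 to 12.2 CPM.

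Spread within groups differed between the genes. The coefficient of variation within groups was 6.57% for Grm7, 7.81% for Grm3 and 9.22% for Grm5, all under the median of 12.7% over the tested genes. It was 13.3% for Grm2, 19.6% for Grm8 and 28.8% for Grm4, the last at percentile 75.8 of tested genes. Grm4 and Grm8 also had the lowest counts of the 6.

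The neuronal arm compares syn Cre-positive with syn Cre-negative libraries. Of the 6 receptor genes, 0 were called at an adjusted p under 0.05, and 0 had an unadjusted p under 0.05 in edgeR's quasi-likelihood test. Over all genes tested 0.00507% were called (1 gene), with 922 genes at an unadjusted p under 0.05. DESeq2 and limma-voom called 0 of the 6. The smallest intervals belonged to Grm7, with a log2 fold change of −0.02 (SE 0.06, 95% interval −0.14 to 0.09), and to Grm3, with 0.10 (SE 0.06, −0.03 to 0.23). As folds these intervals run from 0.909 to 1.07 for Grm7 and from 0.979 to 1.18 for Grm3. Grm5 had a log2 fold change of 0.06 (SE 0.07, −0.08 to 0.20) and Grm2 of −0.09 (SE 0.10, −0.30 to 0.12). Grm8 and Grm4 were the least well determined, at −0.24 (SE 0.15, −0.54 to 0.07) and −0.35 (SE 0.22, −0.81 to 0.12). All 6 intervals include 0, and the one of Grm4 allows folds from 0.570 to 1.08. The value of Grm4 was −0.56 without syn Cre-positive 5, −0.19 without syn Cre-negative 2 and −0.60 without the 6 libraries rich in Ttr, with edgeR adjusted p from 0.734 to 1.00 over its alternatives. The median log2 fold change was −0.06 over the 6 genes and −0.003 over all tested genes.

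The astrocytic arm compares gfap Cre-positive with gfap Cre-negative libraries. Again 0 of the 6 receptor genes were called and 0 had an unadjusted p under 0.05 in edgeR, against 0.0101% called over all genes (2 genes) and 590 genes at an unadjusted p under 0.05. DESeq2 and limma-voom called 0 of the 6 here too. Grm7 (log2 fold change 0.04), Grm3 (0.02, 95% interval −0.12 to 0.15) and Grm5 (−0.04, −0.19 to 0.10) lay closest to 0. Grm2 was at −0.14 (−0.35 to 0.07), Grm8 at −0.13 (−0.44 to 0.17) and Grm4 at −0.26 (−0.73 to 0.21). As folds the intervals run from 0.879 to 1.07 for Grm5 and from 0.922 to 1.11 for Grm3, and from 0.605 to 1.15 for Grm4. Grm4 stood at −0.39 without gfap Cre-negative 3 and at −0.16 without gfap Cre-negative 2, and Grm8 at −0.003 without gfap Cre-negative 4. The median was −0.09 over the 6 genes and −0.003 over all tested genes.

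The difference of the 2 arms asks whether a receptor gene responded in a different way in the syn line than in the gfap line. For this contrast 0 of the 6 were called and 0 had an unadjusted p under 0.05 in edgeR, against 0.0101% called (2 genes) and 691 genes at an unadjusted p under 0.05 over all genes. DESeq2 and limma-voom called 0 of the 6. The difference was 0.10 for Grm5 (SE 0.10, 95% interval −0.10 to 0.31) and 0.09 for Grm3 (−0.10 to 0.27). It was 0.05 for Grm2, −0.06 for Grm7, −0.10 for Grm8 and −0.09 for Grm4, whose interval of −0.74 to 0.57 was the widest. A difference between the arms was not detected for any of the 6, and as folds the intervals run from 0.858 to 1.07 for Grm7 and from 0.597 to 1.48 for Grm4.

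**Figure D3:**
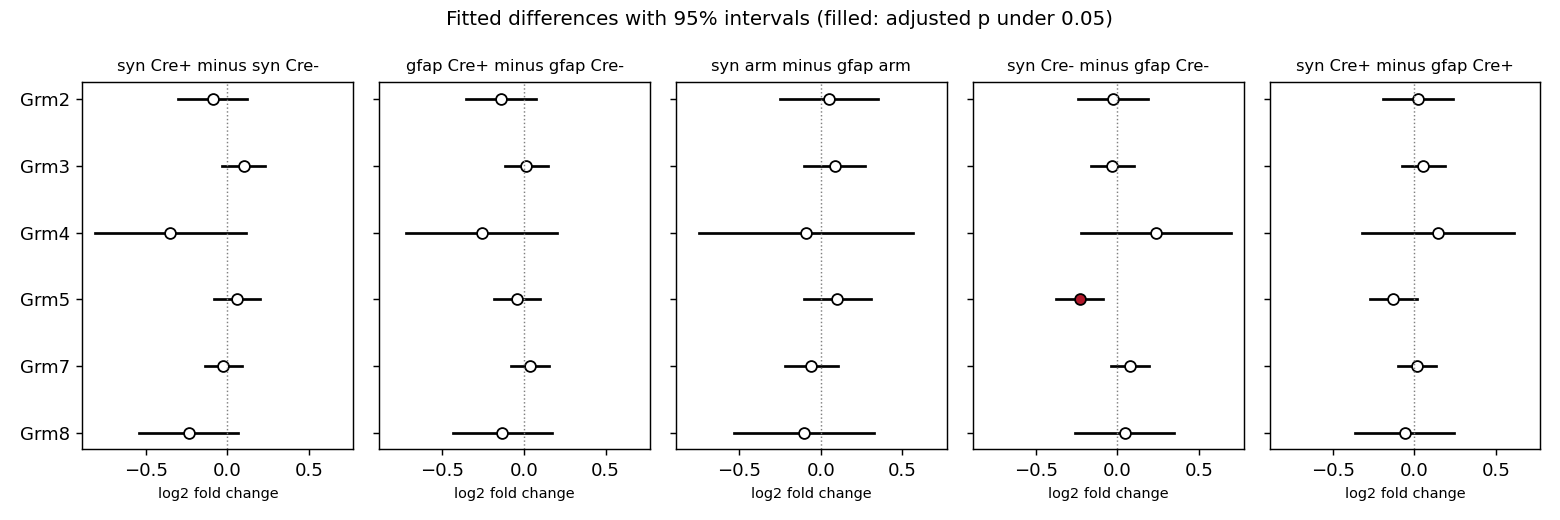
Fitted log2 fold change (horizontal axis, the same in all panels) of each receptor gene with its 95% interval, 1 panel per comparison, filled where the adjusted p was under 0.05. The 1 filled point is Grm5 between the Cre-negative groups (−0.23), and the intervals of Grm4 are the widest in every panel.

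The Cre-negative groups of both lines are labelled EAAT2 +/+, so their comparison is one between lines under the same genotype label. In it line, cohort and any unlabelled batch cannot be told apart. Grm5 was lower in the syn line, with a log2 fold change of −0.23 (SE 0.07, 95% interval −0.38 to −0.09, edgeR adjusted p = 0.0132). In percent this was a change of −14.9%. This was 1 of the 6 receptor genes, beside 31.2% of all tested genes called in this comparison, of which 14.6% were higher and 16.6% lower in the syn line, so a call here is not particular to Grm5. In all, 5 of 6 gfap Cre-negative libraries lay above all syn Cre-negative ones, and gfap Cre-negative 4 lay within their range. Without gfap Cre-negative 3 the value was −0.19 and the call was lost (adjusted p = 0.0566), and without the 6 Ttr-rich libraries it was −0.20 (adjusted p = 0.124), over a range of 0.0016 to 0.124 among all alternatives. Grm4 (0.24, −0.23 to 0.70), Grm7 (0.08, −0.04 to 0.19), Grm8 (0.04), Grm2 (−0.03) and Grm3 (−0.03, −0.16 to 0.10) did not pass. Without the Ttr-rich libraries Grm4 passed instead (0.52, adjusted p = 0.0488, with adjusted p from 0.0488 to 0.831 over its alternatives).

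Between the Cre-positive groups, which use the other 12 libraries, 0 of the 6 receptor genes were called by edgeR, DESeq2 or limma-voom and 0 had an unadjusted p under 0.05 in edgeR. Over all genes 27.5% were called, 12.8% higher and 14.7% lower in the syn line. Grm5 was at −0.13 (SE 0.07, 95% interval −0.27 to 0.01, adjusted p = 0.173), with 4 of 6 gfap libraries above all syn libraries. Grm4 was at 0.15, Grm3 at 0.05, Grm2 and Grm7 at 0.02 and Grm8 at −0.06. The line difference of Grm5 was not shown to differ between Cre-negative and Cre-positive groups, since the test of that difference is the difference of the arms given above (0.10, adjusted p = 1.00). The split of calls between directions depends on scaling. The share of calls that were higher in the syn line was 46.8% between Cre-negative groups with TMM scaling, 52.8% with RLE and 58.5% with upper-quartile factors, and 46.5%, 58.0% and 65.5% between Cre-positive groups. Grm5 was negative under every scaling in both comparisons.

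Cell type markers moved with the line as well. Of 10 neuronal markers 9 fell and 0 rose in the syn line between Cre-negative groups (median log2 fold change −0.22), and 7 fell and 0 rose between Cre-positive groups (median −0.21). Over all genes 16.6% were called lower and 14.6% higher between Cre-negative groups, and 14.7% lower and 12.8% higher between Cre-positive groups. Of 10 oligodendrocyte markers 8 rose between Cre-negative and 10 rose between Cre-positive groups. Their summed level was 5516 to 8488 CPM in syn and 3726 to 5506 CPM in gfap libraries. Choroid plexus markers summed to as much as 5445 CPM in syn and at most 277 CPM in gfap libraries, while 12 astrocyte markers summed to 3207 to 3592 CPM in syn and 3378 to 3773 CPM in gfap libraries. Of these astrocyte markers 1 rose and 2 fell between Cre-negative groups, and 2 rose and 2 fell between Cre-positive groups. No marker of the neuronal, oligodendrocyte, choroid plexus or astrocyte lists was under 0.5 CPM in every library. The part of these markers in the line difference of Grm5 was not tested.

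Set against the neuronal markers, Grm5 was at about the same level in both lines, and the other 5 receptor genes had higher means in both syn groups than in both gfap groups. Grm5 stood at 38.3 ± 1.04 per 1000 CPM of summed neuronal markers in syn Cre-positive libraries, 36.1 ± 3.20 in syn Cre-negative, 36.0 ± 3.39 in gfap Cre-positive and 36.3 ± 3.67 in gfap Cre-negative libraries (SD, n = 6). Against the astrocyte markers the lower level of Grm5 in the syn line remained in the means, at 88.6 ± 4.25 and 87.3 ± 7.75 per 1000 CPM in the syn groups and 93.0 ± 12.7 and 98.7 ± 10.4 in the gfap groups (Cre-positive first). Per 1000 CPM of neuronal markers Grm3 was at 5.99 ± 0.313 and 5.48 ± 0.424 in the syn groups and 4.97 ± 0.423 and 4.81 ± 0.386 in the gfap groups, and Grm2 at 6.24 and 6.50 against 5.31 and 5.72. Grm7 was at 6.99 ± 0.362 and 6.99 ± 0.573 in the syn groups and 5.95 ± 0.207 and 5.69 ± 0.369 in the gfap groups (Cre-positive first). For Grm7 the lowest syn library (6.44) was above the highest gfap library (6.31), while its CPM ranges overlapped between the lines. The summed neuronal markers were lower in every syn library than in any gfap library. A gene of equal CPM in both lines is therefore higher in syn when set against them. How many other genes are separated in this way was not counted. These ratios are descriptions and were not tested.

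**Figure D4:**
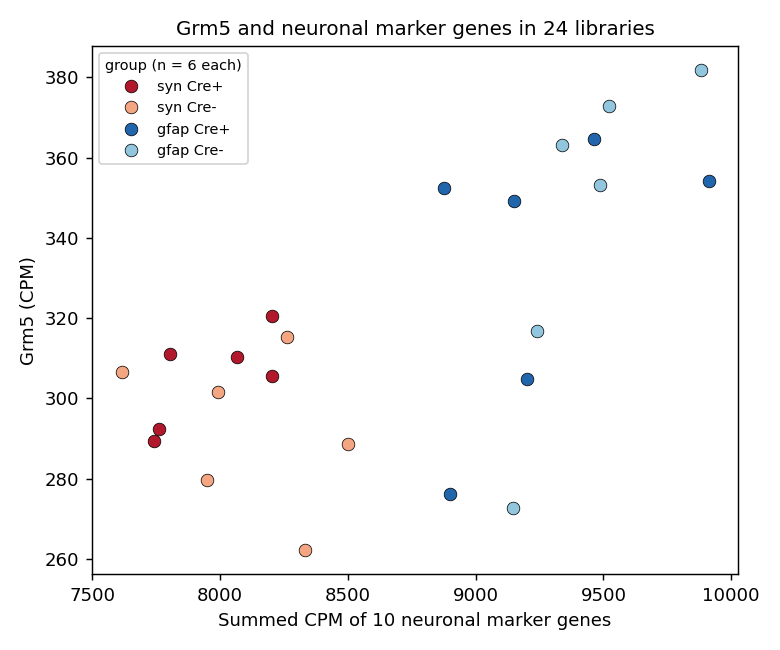
Grm5 (vertical axis, CPM, not starting at 0) against the summed CPM of 10 neuronal marker genes (horizontal axis) in 24 libraries, coloured by group. The syn libraries lie at 7614 to 8499 CPM of markers and the gfap libraries at 8877 to 9912 CPM, and the low gfap libraries of Grm5, at 273 and 276 CPM, lie apart from the rest of their groups.

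Variation between libraries of 1 group was compared by correlating log2(CPM + 0.1) values after subtraction of group means, over 24 libraries. These correlations are descriptions, since libraries share their dissection, depth and RNA makeup across genes. The gene nearest to Grm4 was Slc17a6, the vesicular glutamate transporter VGLUT2 of thalamic and other subcortical neurons (Pearson r 0.94, Spearman rho 0.88). The value was 0.92 without gfap Cre-negative 3 and syn Cre-positive 5, the libraries farthest from the median of Grm4, and 0.96 within the syn and 0.95 within the gfap line. Slc17a6 ran from 9.81 to 49.1 CPM in syn Cre-positive, 10.6 to 38.4 CPM in syn Cre-negative, 12.7 to 18.2 CPM in gfap Cre-positive and 5.60 to 30.1 CPM in gfap Cre-negative libraries. Its SD was 1.86 CPM in the gfap Cre-positive group and 9.14 to 14.1 CPM in the remaining groups, so the group that was nearly level for Grm4 was also the most level for Slc17a6. The library with the most Slc17a6 was syn Cre-positive 5, which also led for Tcf7l2, Prkcd, Drd2 and Eomes. The one with the least was gfap Cre-negative 3, the lowest for Grm4. After Slc17a6 came Syt2, a vesicle calcium sensor (r 0.91), and Gng4, a G-protein gamma subunit (r 0.90). No source used here says how the tissue was dissected, and the part of dissection in the spread of Grm4 was not tested.

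**Figure D5:**
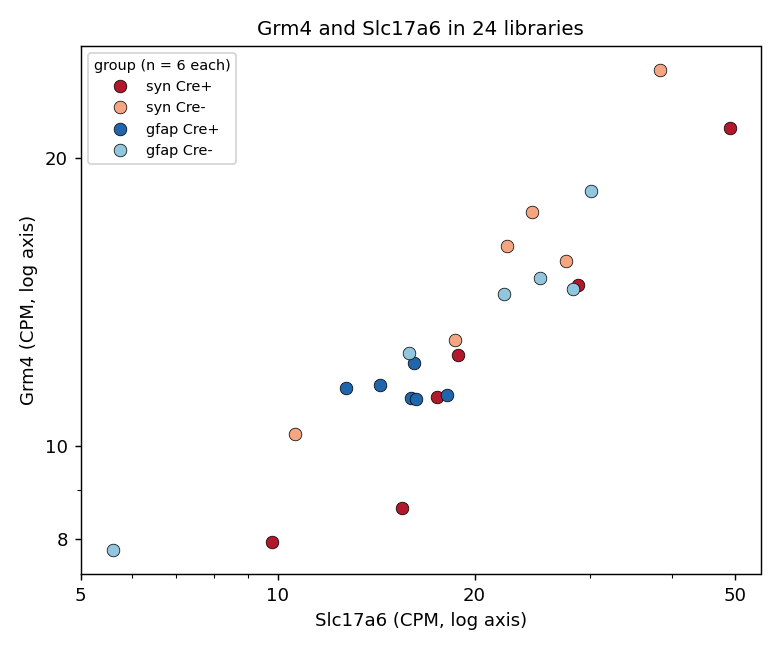
Grm4 against Slc17a6, both in CPM on log axes, in 24 libraries coloured by group (6 each). The points follow a common line from gfap Cre-negative 3 (5.60 CPM of Slc17a6) to syn Cre-positive 5 (49.1 CPM), and the gfap Cre-positive libraries sit close together.

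The nearest genes of the other receptors were different ones. Grm5 varied most like Alg10b, a glycosyltransferase (r 0.96), and Tmod2, a neuronal actin-capping protein (0.94). Grm3 varied most like the transcription factor genes Bach2 (r 0.89) and Nr2e1 (0.86) and the ubiquitin ligase gene Hecw1 (0.86). Grm2 was closest to Mib2, Spns1 and Hdac5 (0.85 to 0.89), Grm7 to Psd3, Tmem245 and Raph1 (0.82 to 0.84), and Grm8 to Mrps28, Klhdc8a and Cdh18 (0.75 to 0.83). Among the 6 receptor genes the closest were Grm5 and Grm7 (r 0.74, and 0.57 without gfap replicate 4 of each genotype). Grm3 and Grm5 had r 0.57, which was 0.21 without the same libraries and was −0.20 within the syn line against 0.90 within the gfap line, so it rests on those libraries. Grm4 and Grm8 had r 0.54 (0.29 without gfap Cre-negative 3 and syn Cre-positive 5) and Grm2 and Grm8 0.51. Grm5 was inverse to Grm8 (−0.52, but −0.23 without gfap replicate 4 of each genotype). It was also inverse to Grm2 (−0.50, and −0.48 without gfap Cre-negative 1 and syn Cre-negative 4).

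Pairs of receptors of the same pharmacological group differed in how alike they varied across libraries. Pearson r was −0.02 for Grm2 and Grm3, 0.04 for Grm4 and Grm7, and 0.54 for Grm4 and Grm8. For Grm7 and Grm8 it was −0.48, and −0.27 without gfap Cre-negative 4 and syn Cre-positive 4. The promoters of Grm2 and Grm3 and of Grm7 and Grm8 are printed to show how the upstream sequence compares within a group. They come from RefSeq on GRCm38.p6, where 4 of the 6 genes matched by symbol and Grm4 and Grm5 are named only. Each is 100 bases, 5′ to 3′ on the gene's strand, ending before the first base that RefSeq or GENCODE places in the gene. For Grm8 that base is GENCODE's, at 28135178, upstream of the RefSeq start site at 28135146. Capitals mark GGGCGG (the GC box) or CCAAT on either strand.
Grm2 promoter, chr9:106656110-106656209, minus strand: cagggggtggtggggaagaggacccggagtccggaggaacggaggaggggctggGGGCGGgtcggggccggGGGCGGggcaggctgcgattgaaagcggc
Grm3 promoter, chr5:9725353-9725452, minus strand: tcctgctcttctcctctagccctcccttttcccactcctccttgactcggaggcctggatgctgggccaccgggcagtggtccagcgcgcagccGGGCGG
Grm7 promoter, chr6:110645412-110645511, plus strand: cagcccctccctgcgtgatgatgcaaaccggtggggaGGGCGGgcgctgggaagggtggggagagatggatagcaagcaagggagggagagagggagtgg
Grm8 promoter, chr6:28135179-28135278, minus strand: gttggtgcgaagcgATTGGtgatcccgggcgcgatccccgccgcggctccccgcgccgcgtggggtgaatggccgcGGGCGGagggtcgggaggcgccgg
The 4 sequences share high GC content and differ in CpG content. In the 250 bases before the RefSeq start site, GC content was 71.2% for Grm2, 62.4% for Grm3, 62.0% for Grm7 and 68.4% for Grm8, against a median of 52.4% over 32851 windows of the same length. CpG pairs numbered 16 for Grm2, 8 for Grm3, 8 for Grm7 and 29 for Grm8 (median 6), which put Grm8 at percentile 93.2 of all windows. GGGCGG occurred 3 times before Grm2 and 1 time before each of Grm3, Grm7 and Grm8, and is present in 32.7% of all windows. CCAAT occurred 1 time before Grm2 and 2 times before Grm8 (33.8% of windows). Searched on both strands, the cyclic AMP response element TGACGTCA was in 0 of these 4 windows and in 1.55% of all windows. The E-box CACGTG was in 0 of 4 (6.02% of all) and the TATA box TATAAA in 0 of 4 (12.4% of all). A match is a description of the letters only.

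Genes that work with these receptors were read from 6 lists of 93 tested genes in all: ligand supply and NAAG handling (12), scaffolds and trans-synaptic partners (20), Gi/o signalling (18), Gq signalling (18), desensitisation (13) and translation targets of long-term depression (12). In the neuronal arm edgeR called 0 of the 93, with 1 at an unadjusted p under 0.05, and in the astrocytic arm 0 with 1 at an unadjusted p under 0.05. For the difference of the arms it called 0, with 2 at an unadjusted p under 0.05. DESeq2 and limma-voom called 0 of the 93 in each of these contrasts. The genes nearest to a call in the neuronal arm are given as values, all at an edgeR adjusted p of 1.00. Among ligand supply genes Slc1a2 was at −0.14 and Slc1a3, the other main astrocytic glutamate transporter, at −0.05 (log2 fold change). Elfn1, a trans-synaptic partner of presynaptic group III receptors, was at 0.16, and Siah1a, a ubiquitin ligase that binds group I receptors, at −0.09. Among effectors, the adenylyl cyclase Adcy2 was at 0.05 and the potassium channel subunit Kcnj9 at −0.10. Rgs14, a regulator of G-protein signalling, was at 0.11, the receptor kinase Grk3 at −0.12, the synaptic pentraxin Nptx2 at −0.25 and Cyfip1, a repressor of translation, at 0.07.

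In the astrocytic arm the corresponding values were also at an edgeR adjusted p of 1.00. The NAAG peptidase Naalad2 was at 0.24 and the cystine-glutamate exchanger Slc7a11 at 0.17. The scaffold Homer3 was at 0.13, Pick1, which binds Grm7, at −0.07, Adcy8 at −0.18 and the potassium channel Kcnj3 at −0.05. Dgkz, which clears diacylglycerol, was at 0.07, the calcium release channel Itpr1 at −0.09, Grk4 at 0.34, Rgs4 at −0.07, Mtor at −0.08 and Map1b at −0.13. For the difference of the arms Elfn1 (0.26) and Siah1a (−0.14) had the smallest p. The values for the remaining lists were −0.11 for Slc1a3 and −0.30 for Naalad2, −0.12 for Gnai3 and 0.06 for Kcnj3, 0.13 for Mapk3, 0.17 for Rgs14 and −0.34 for Grk4, and 0.12 for Mtor and −0.10 for Eif4e. Apart from Elfn1, Siah1a, Grk4 and Nptx2, the genes named for the arms had an unadjusted p above 0.05 in each arm and in their difference.

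Between the lines many of these genes differed, mostly lower in the syn line. Of the 93 genes 37 fell and 2 rose between Cre-negative groups, and 34 fell and 2 rose between Cre-positive groups, beside the shares of 31.2% and 27.5% called over all genes. By direction, those shares were 16.6% lower and 14.6% higher between Cre-negative groups, and 14.7% lower and 12.8% higher between Cre-positive groups. For the 93 genes edgeR gave the counts above. DESeq2 called 32 lower and 2 higher, and 31 lower and 2 higher. In the Gq list 10 of 18 were lower and 0 higher between Cre-negative groups (median log2 fold change −0.21, against −0.02 over all genes), and 8 were lower and 1 higher between Cre-positive groups. The kinase genes Mapk3 (−0.31) and Camk2a (−0.27) fell between Cre-negative groups. Camk2a (−0.26), Plcb1 (−0.20), the phospholipase downstream of mGlu5, and Gna11 (−0.19) fell between Cre-positive groups. Under upper-quartile scaling 7 of 18 and 6 of 18 were called lower.

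In the Gi/o list 9 of 18 fell and 0 rose between Cre-negative groups (median −0.12), and 8 fell and 0 rose between Cre-positive groups (median −0.09). The shares called lower over all genes were 16.6% and 14.7%, and those called higher 14.6% and 12.8% (Cre-negative groups first). Gng3 (−0.39 and −0.36) and Gnb1 (−0.20 and −0.18), subunits of the G protein, fell in both comparisons, as did Kcnj3 (−0.24) and Prkaca (−0.22) between Cre-negative and Gnaz (−0.29) and Gnb5 (−0.22) between Cre-positive groups. Among scaffolds 9 of 20 fell and 0 rose between Cre-negative groups (median −0.14), and 7 fell and 1 rose between Cre-positive groups (median −0.12). Dlgap1 (−0.25 in each) and Dlg4 (−0.20 in each), proteins of the postsynaptic density, fell in both. Ncdn (−0.32), which binds mGlu5, and Caly (−0.33) fell between Cre-negative groups, and Siah1a (−0.28) and Ctnnd2 (−0.15) between Cre-positive groups. Upper-quartile scaling left 3 scaffolds lower and 2 higher between Cre-positive groups.

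Ligand supply, desensitisation and translation genes were also read. Beside them, 16.6% of all tested genes were called lower and 14.6% higher between Cre-negative groups. Between Cre-positive groups these shares were 14.7% lower and 12.8% higher. Of 12 ligand supply genes 3 fell and 1 rose between Cre-negative groups (median −0.13), and 6 fell and 0 rose between Cre-positive groups (median −0.21). The neuronal glutamate transporter Slc1a1 (−0.25 and −0.26), the vesicular transporter Slc17a7 (−0.24 and −0.31) and the NAAG synthetase Rimklb (−0.15 and −0.21) fell in both comparisons. Naalad2 (0.39) rose between Cre-negative groups and Slc1a3 (−0.23) fell between Cre-positive groups. Of 13 desensitisation genes 4 fell and 1 rose between Cre-negative groups (median −0.09), and 4 fell and 0 rose between Cre-positive groups (median −0.12). Rgs14 (−0.42 and −0.25) and the receptor kinase Grk2 (−0.14 and −0.16) fell in both, Grk4 (0.49) rose between Cre-negative groups and Rgs7 (−0.17) fell between Cre-positive groups. Of 12 translation targets Cyfip1 (−0.14) and Mtor (−0.15) fell between Cre-negative groups and Eif4e (−0.21) between Cre-positive groups, with medians of −0.03 and −0.05. Calls of a lower level were thus about as frequent among translation targets as over all genes, or less so. With upper-quartile scaling 2 desensitisation genes were called lower in each comparison, and 0 translation targets were called between Cre-negative groups, where their median was 0.007. The neuronal markers moved with these lists, and their part in them was not tested.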

How the data were processed

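Total RNA of 24 mouse brain libraries, 6 in each of 4 groups given by the labels' cell type and genotype, had been sequenced. The authors deposited raw counts per gene as whole numbers, with 5 summary lines per file that name no gene and hold 26.15 to 39.75% of the file total. These lines were left out. HISAT2, HTSeq 0.6.0, DESeq2 1.6.3 and mm10 are named per the submitters' processing notes, with no role or order. No source used here gives the strand setting or the annotation release. Exons of Grm2 overlap antisense Gm28111 over 470 bases, and those of Grm7 overlap antisense Gm20387 over 130 bases. Reads from these stretches cannot be told apart. The antisense genes' own counts over all libraries were 59 and 2085, which do not measure the shared reads. Symbols and coordinates come from GENCODE M21 (GRCm38), which named 52489 of 52636 identifiers (99.72%).

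Deposited counts were scaled by TMM, filtered with filterByExpr (19726 genes left) and fitted in edgeR 4.0.16 (R 4.3.3) as 1 model of 4 groups with 20 residual degrees of freedom (robust quasi-likelihood F test). Calls are Benjamini-Hochberg adjusted p under 0.05 over all genes tested, and intervals are 95%. Alternatives were RLE and upper-quartile scaling, other filters (none, or 1 CPM in 6 libraries), DESeq2 1.42.0, limma-voom (limma 3.58.1), each line fitted alone, each library left out in turn and the 6 libraries above 1000 CPM of Ttr left out. Leaving out syn Cre-positive 5, syn Cre-negative 2 and gfap Cre-negative 4 together was chosen after seeing the data. The fit was also run on simulated counts with changes set in the syn Cre-positive group, and its outcome is not given here. Only the neuronal arm was read from it, so it says nothing about the line comparisons.

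The receptor genes and the lists were chosen with earlier results of these data known. All 6 receptor genes are named. From each list up to 4 called genes with the smallest p are named, or the 2 with the smallest p where none was called, and for each receptor gene the 3 most alike genes without provisional names. A few genes that this rule would name are left out of the text. Single cell type markers named beside them, and Ttr, were chosen after their values were seen. Other genes of the receptor family are not analysed here. Replicate numbers follow accession order and only name a library.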

Additional observations from a re-analysis of the deposited data

Results flagged for a closer look

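Among the 24 groups of values checked (6 receptor genes in 4 groups of 6), 2 held a library far from the others by Dixon's criterion, where chance alone gives about 1 in 20. Grm7 was lowest in gfap Cre-negative 4, at 46.1 CPM, where the other 5 libraries of that group held 53.3 to 57.4 CPM. Grm4 was highest in gfap Cre-positive 3, at 12.2 CPM, where the other 5 held 11.2 to 11.6 CPM, so that gap is small beside the range of Grm4 in the remaining groups.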

How the results depend on the processing

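The count of receptor genes called was 0 in both arms and in their difference under every alternative run. It was 0 to 1 between Cre-negative groups when each library was left out and 1 otherwise, and 0 between Cre-positive groups under every alternative. The count of all genes called in the neuronal arm was 15 with DESeq2, 8 with limma-voom, 2 with the line fitted alone, 5 without a filter, 5 without the 3 libraries that stand apart and 3 without the Ttr-rich libraries, and 1 to 3 over leaving out each library. Without the Ttr-rich libraries 3647 genes were called between Cre-negative and 2259 between Cre-positive groups, in a fit of 18 libraries. Leaving out each library gave 2 genes in the astrocytic arm, 2 to 3 for the difference of the arms, 4878 to 6370 between Cre-negative and 3978 to 5239 between Cre-positive groups.

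In the fits other than those with 1 library left out, 18 values near 0 changed sign. In the same fits 226 values kept direction and side of the threshold. The cause of the sign changes was not tested. For Grm2 the difference of the arms became −0.015 with limma-voom, −0.024 without the 3 libraries and −0.022 without the Ttr-rich ones. Its value between Cre-negative groups became 0.015 with the 1 CPM filter, 0.028 with limma-voom, 0.0074 with upper-quartile scaling, 0.036 without the 3 libraries and 0.11 without the Ttr-rich ones. Grm3 became −0.0072 with limma-voom and −0.032 without the 3 libraries in the astrocytic arm, and between Cre-negative groups 0.011 with the 1 CPM filter, 0.0030 with upper-quartile scaling and 0.052 without the Ttr-rich libraries. Grm4 between Cre-positive groups became −0.044 without the 3 libraries. Grm7 became 0.022 (difference of the arms) and 0.056 (neuronal arm) without the Ttr-rich libraries, −0.0066 (astrocytic arm) without the 3 libraries and −0.00046 (between Cre-positive groups) with no filter.

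With 1 library left out, 26 values changed sign. The ranges were −0.019 to 0.10 (Grm2), −0.30 to 0.072 (Grm4) for the difference of the arms, −0.032 to 0.051 (Grm3), −0.10 to 0.0064 (Grm5) and −0.0066 to 0.057 (Grm7) in the astrocytic arm, and −0.049 to 0.0043 (Grm7) in the neuronal arm. Between Cre-negative groups they were −0.082 to 0.045 (Grm2) and −0.035 to 0.19 (Grm8), and between Cre-positive groups −0.023 to 0.077 (Grm2), −0.065 to 0.27 (Grm4), −0.011 to 0.058 (Grm7) and −0.17 to 0.0013 (Grm8). No paired analysis was possible because replicate numbers come from accession order and tie no libraries together. The low counts of Grm8 and the spread of Grm4 limit what can be detected for them.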
